A study of Mus musculus with 12 samples.

Results

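Kidneys of RC/RC:Casp1KO mice were compared with kidneys of wild-type (WT) mice, 4 animals against 4, which are 8 of the 12 animals profiled by RNA sequencing. The comparison addresses what still separated the polycystic kidney from a normal kidney once caspase-1 was missing. RC/RC:Casp1KO mice carry the RC allele of Pkd1, a hypomorphic missense change orthologous to a human disease allele, on both chromosomes and are homozygous for a TALEN-made deletion in Casp1 (the Del3 line). The third group was RC/RC mice with intact Casp1 (4 animals). All mice were C57BL/6J, 6 months old and untreated, with 2 males and 2 females in each group, and the tissue was whole kidney. Both alleles were present in every cell from conception, and no group carried the Casp1 deletion with normal Pkd1, so the deletion was not measured apart from the RC allele. RC/RC mice, which carry the RC allele alone, share the WT mice of the comparison, and their values are set beside it. The count columns name the group but neither the sex nor the replicate number of a mouse.

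Polycystin-1, the product of Pkd1, works with polycystin-2 at the primary cilium of tubule cells, and too little of it leads tubules to dilate into cysts. Caspase-1 is the protease of the inflammasome, a complex of innate immune cells that cleaves the precursors of IL-1β and IL-18 and opens gasdermin D pores. Cystic kidneys are known to gather macrophages, lymphocytes and matrix around the cysts. In bulk tissue, fewer cells of a type and less RNA per cell cannot be told apart, and the same holds for more cells.

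The Casp1 deletion was made at the end of exon 6. The TALEN pair, decoded repeat by repeat, matched 1 place in Casp1, at chr9:5303749-5303793 of GRCm39 on the plus strand. It is shown because it locates the lesion that defines the group. The capitals mark the 15 bases between the 15-base binding sites, and the exon ends at position 5303774, within them, so that the capitals hold the splice donor.
Casp1 target: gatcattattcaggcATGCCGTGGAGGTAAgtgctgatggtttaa

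The reads counted on genes ran from 20556335 to 22656309 in WT and from 18738755 to 24869454 in RC/RC:Casp1KO libraries. Expression is given as CPM (reads of a gene as a share of the library, times a constant), with libraries scaled by the trimmed mean of M-values (TMM). The libraries carried kidney markers in both groups. Slc34a1, the phosphate transporter of the proximal tubule, averaged 5842 CPM in WT and 5061 in RC/RC:Casp1KO mice, and Umod of the thick ascending limb averaged 3949 and 3264. Xist was above 300 CPM in 2 mice of each group and below 1 in the other two, matching the 2 females of each group in the labels. Along the first principal component those 2 WT mice sat at -58.7 and -60.1 and the other WT mice at 7.4 and 19.5, while the RC/RC:Casp1KO mice lay at -4.1, 3.8, 35.6 and 56.6. On the second component the WT mice with Xist sat at -3.9 and -4.2 and those without at -40.8 and -46.1, against 40.7 and 45.8, and -7.8 and 16.4, in RC/RC:Casp1KO mice. Among mice with Xist, and among those without, the groups did not overlap on either component.

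Of 15346 genes tested with edgeR's quasi-likelihood test, 311 were called at a Benjamini-Hochberg adjusted p under 0.05, which is 2.03% of those tested. They comprised 174 higher genes (1.13%) and 137 lower genes (0.893%) in RC/RC:Casp1KO kidneys. All 311 had groups that did not overlap, against 13.7% of all tested genes. Higher genes made up 55.9% of the calls, 79.8% when scaled by library size alone, 67.9% in one fit of all 12 mice, 47.3% with at least 10 counts in every mouse and 47.8% without WT mouse B6_4. With a term for whether a mouse had Xist, a fit added after the data were seen, 1257 genes were called, including all 311. The median size of a called change was 1.28 on the log2 scale. By the same test RC/RC kidneys differed from the same WT mice in 1971 genes (12.9%). The number of calls changed when 1 mouse was left out, from 108 without WT mouse B6_6 to 547 without RC/RC:Casp1KO mouse Del3_42. Such a fit also has fewer animals and an uneven number of mice with Xist. No such fit had a term for Xist, so the weight of 1 animal was not tested apart from these. Of the 311 genes, 77 were called in all 8 fits that left out 1 mouse each and 155 in 2 or fewer of them. Among those named below, Ighg2c, Ighg2b, Ighg1, Dcn, Alas2, Atp4a, BC018473, St6galnac1, Ndufs5 and Atp6v0c were called in all 8, Igha, Igkc and Angptl7 in 7, and H2-DMa and Smoc2 in 5. Il18r1, Cyp24a1 and Hsp90aa1 were called in 4 of the 8, and Klk1, Notch2, Eno1, Gclc and Hbb-bt in 3. Cd74, Ciita, H2-Ab1, H2-DMb2 and Hbb-bs were called in 2, whereas Pkd2, Pkhd1, Glis2, Calb1, Top2a, Foxm1, Mzb1, Oas2, Gsr, Sqle and Serpina3n were called in 1 and Skap1 in none.

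**Figure D1:**
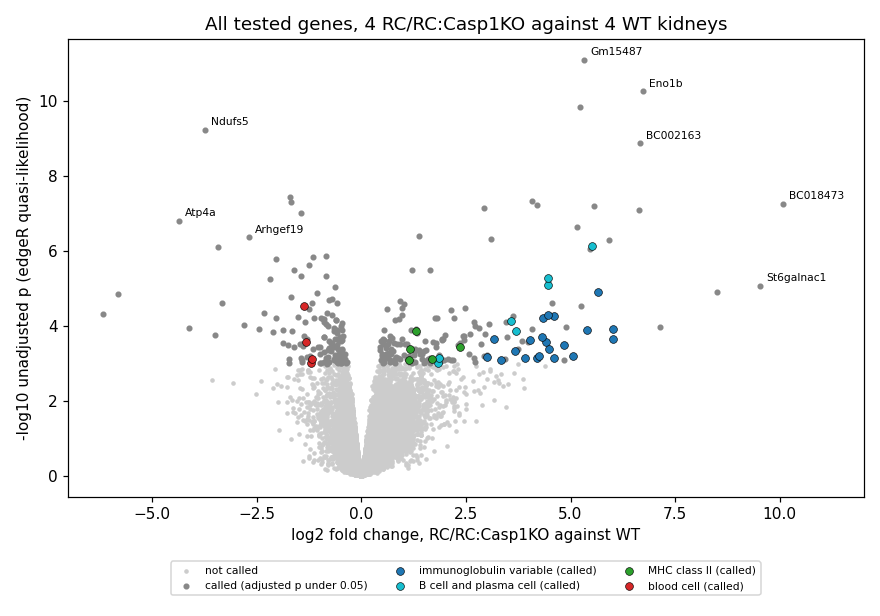
Each point is 1 of the 15346 tested genes, with the log2 fold change of RC/RC:Casp1KO against WT on the horizontal axis and the unadjusted p on a -log10 scale on the vertical axis. Called genes of 4 lists are coloured: the immunoglobulin, B cell and MHC class II members lie to the right and the 4 blood cell genes to the left, and among the points farthest up are genes with near-identical copies such as Gm15487 and Ndufs5.

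Casp1 itself was low in every kidney. It read 1.29, 1.30, 1.41 and 2.06 CPM in WT mice and 0.385, 0.664, 0.665 and 1.05 CPM in RC/RC:Casp1KO mice. The groups did not overlap, but the log2 fold change of -1.12 ± 0.35 (SE) had an adjusted p of 0.128 by edgeR. A count over the whole gene includes the exons that the deletion leaves in place. RC/RC kidneys averaged 3.52 CPM. Pkd1 ran from 40.4 to 67.1 CPM in WT and from 56.3 to 86.1 CPM in RC/RC:Casp1KO mice, which overlapped, with a log2 fold change of 0.44 (adjusted p = 0.234).

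Immunoglobulin transcripts, which mark B cells and above all plasma cells, stood higher in every RC/RC:Casp1KO kidney than in any WT kidney. Summed over the 221 variable-region genes in the table, they came to 5.15, 14.0, 18.2 and 18.8 CPM in WT and to 89.9, 111, 143 and 299.9 CPM in RC/RC:Casp1KO mice. The lowest mutant mouse was thus several times above the highest WT mouse, and mouse Del3_70 was the highest. In RC/RC mice the same sum ran from 293 to 573 CPM. Of the 221 genes, 39 passed the filter on low counts and 40 had no count in the 8 mice. Of the 39, 21 were called, all higher, against 1.13% of all tested genes. The filter keeps a gene seen in one group alone, so that count and the median over the 39 describe the genes and are no separate support. Reads of variable-region genes can be split between similar family members.

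The constant regions and B-lineage genes followed. Among 14 tested B cell and plasma cell genes, 7 were called higher, against 1.13% of all tested genes, and none lower, among them Ighg2c, Ighg2b, Ighg1, Igha and Igkc, which encode antibody chains, and Mzb1, a plasma cell chaperone. The list median was 2.11 over these 14 genes, with 0.012 over all tested genes, and 1.82 over the 21 that were tested with every gene of at least 1 count kept. The filter keeps a gene seen in one group alone here too, so neither count nor median is separate support. Ighg2c stood at 0.191, 0.335, 0.843 and 1.20 CPM in WT and at 21.6, 22.8, 31.4 and 41.5 CPM in RC/RC:Casp1KO mice. Every mutant kidney was far above every WT kidney, and the log2 fold change was 5.51 ± 0.46 (SE), with an adjusted p of 0.000544 by edgeR. Igha, the IgA heavy chain, was the most abundant member, at 7.12 to 34.2 CPM in WT and 142 to 548 CPM in mutants (log2 fold change 3.70, adjusted p = 0.0194). Ighm, the IgM chain, overlapped between groups and missed the threshold (0.89, adjusted p = 0.399). Set beside the same WT mice, RC/RC kidneys had log2 fold changes of 6.69 for Ighg2c and 4.87 for Igha.

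**Figure D2:**
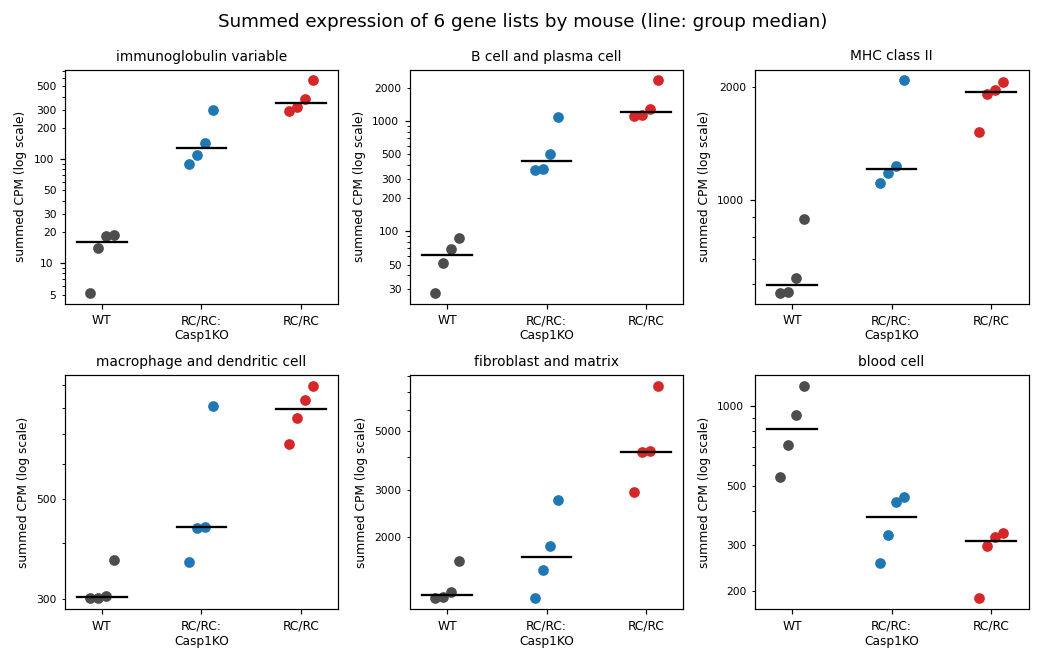
Summed CPM of all members of 6 gene lists in each mouse, on log scales, with a line at each group's median. WT and RC/RC:Casp1KO mice do not overlap for the immunoglobulin, B cell, MHC class II and blood cell lists, and 1 RC/RC:Casp1KO mouse, Del3_70, reaches the RC/RC range for immunoglobulin, MHC class II and macrophage genes. For blood cell genes 2 RC/RC:Casp1KO mice lie in the RC/RC range.

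Genes of MHC class II presentation, by which dendritic cells, macrophages and B cells show peptides to helper T cells, were also higher. Of 10 tested members 5 were called, all higher, against 1.13% of all tested genes: Ciita, the master regulator of the class II genes, Cd74, the invariant chain, H2-Ab1, a peptide-binding chain, and H2-DMa and H2-DMb2, which load the peptide. The other 5 were higher in value without being called, and the list median was 1.10. H2-Ab1, H2-DMa and H2-DMb2 lie in the chromosome 17 windows with many calls described below, where strain background was not tested. Of 20 MHC class I and immunoproteasome genes, 1 was called higher and 1 lower, against 1.13% and 0.893% of all tested genes. Cd74 stood at 223, 225, 265 and 374 CPM in WT and at 493, 506, 540 and 858 CPM in RC/RC:Casp1KO mice. All 4 mutants lay above all 4 WT mice, with a log2 fold change of 1.15 ± 0.23 (SE) and an adjusted p of 0.0458 by edgeR. Ciita rose from 4.16 to 7.59 CPM in WT to 12.1 to 33.9 CPM in mutants (1.68, adjusted p = 0.0449). These calls sat near the threshold: none of the 10 was called without RC/RC:Casp1KO mouse Del3_105, and none without WT mouse B6_3 or B6_6. H2-DMb2 shares sequence with H2-DMb1, and their sum had an adjusted p of 0.0524 by edgeR.

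Macrophage and T cell markers had positive medians but few calls. None of the 22 tested macrophage and dendritic cell genes was called by edgeR, against 2.03% of all tested genes. At an unadjusted p under 0.05 by edgeR, 12 passed and all of these were higher, against 11.8% of all tested genes. DESeq2 called 8 of the 24 members and 1390 of the 23869 genes to which it gave a p-value. Those genes had not passed the count filter used for edgeR, so this all-gene share is not comparable with that of edgeR. With the term for Xist edgeR called 3 of the 22, and 1257 of all 15346 genes. The list median was 0.91, and 0.47 without mouse Del3_70. Lyz2, the lysozyme of myeloid cells, ran from 16.9 to 34.6 CPM in WT and from 45.0 to 125 CPM in mutants, with an adjusted p of 0.0974. Of 17 T cell and NK cell genes 9 were higher and none lower at an unadjusted p under 0.05, with a list median of 1.06. By the adjusted p 1 was called, against 2.03% of all tested genes, Skap1, a T cell adaptor (1.22, adjusted p = 0.0467).

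Few matrix genes and no tubular injury gene passed the test. Of 35 fibroblast and matrix genes 2 were called, against 2.03% of all tested genes, and both were higher. At an unadjusted p under 0.05, 13 were higher, against 11.8% of all tested genes, and 1 was lower. The list median was 0.48, and 0.24 without mouse Del3_70. Dcn, the proteoglycan decorin, read 27.1, 29.1, 33.6 and 34.8 CPM in WT and 51.5, 61.1, 64.9 and 73.8 CPM in RC/RC:Casp1KO mice. The groups were well apart, with a log2 fold change of 1.02 ± 0.13 (SE) and an adjusted p of 0.00799 by edgeR. Smoc2, a matricellular protein of fibrotic kidney, averaged 8.36 ± 3.16 CPM (SD, n = 4) in WT and 33.5 ± 13.9 CPM in mutants, again without overlap (log2 fold change 2.01, adjusted p = 0.0226). RC/RC kidneys averaged 173 CPM of Dcn and 122 CPM of Smoc2. Collagen Col3a1 missed the threshold (1.29, adjusted p = 0.117).

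None of the 30 tubular injury and failed repair genes was called by edgeR, against 2.03% of all tested genes. DESeq2 called 5 of them and 1390 of the 23869 genes to which it gave a p-value, again without the count filter used for edgeR. The fit with a term for Xist called 4 of them and 1257 of 15346 genes. At an unadjusted p under 0.05, 8 were higher, against 11.8% of all tested genes, and 1 was lower, with a list median of 0.33. Lcn2, the injury marker NGAL, stood at 0.862, 1.55, 2.25 and 2.39 CPM in WT and at 4.65, 8.16, 12.7 and 62.1 CPM in RC/RC:Casp1KO mice. The groups did not overlap, but mouse Del3_70 lay within the RC/RC range (49.6 to 106 CPM, mean 82.4) and the other mutants were far below that range. The adjusted p was 0.0649. Havcr1, the injury marker KIM-1, showed the same order, at 0.479 to 2.87 CPM in WT and 6.09 to 41.9 CPM in mutants (adjusted p = 0.069).

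**Figure D3:**
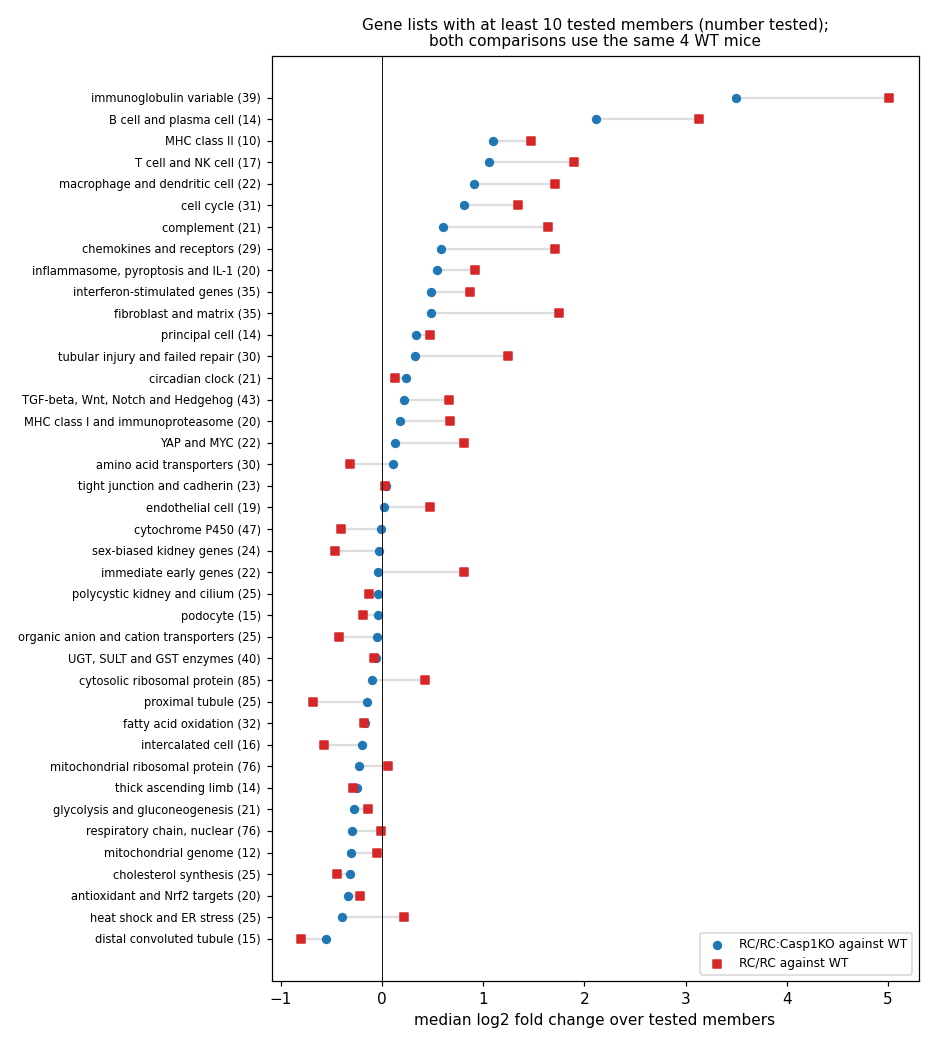
Median log2 fold change of each gene list with at least 10 tested members, for RC/RC:Casp1KO against WT (circles) and RC/RC against WT (squares), which share the 4 WT mice. The immunoglobulin medians (3.50 and 5.01) are over the 39 and 71 genes that passed the filter in each comparison and do not rank that list, and the matrix list stands at 0.48 and 1.75.

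Genes of the inflammasome and of interferon responses held 1 call each, of 20 and 35 tested, near the 2.03% of all tested genes. At an unadjusted p under 0.05, 8 and 11 members were higher, against 11.8% of all tested genes, and 1 and 0 lower, with list medians of 0.54 and 0.48. The 1 lower member was Casp1, the deleted gene. Il18r1, a receptor chain for the cytokine that caspase-1 matures, was the 1 called member of 20 tested inflammasome, pyroptosis and IL-1 genes. It ran from 0.527 to 1.35 CPM in WT and from 3.00 to 8.86 CPM in RC/RC:Casp1KO mice (2.45, adjusted p = 0.0235). Aim2, a sensor of DNA, stood at 0.527 to 0.861 CPM in WT and 1.46 to 3.77 CPM in mutants without being called (1.66, adjusted p = 0.0526), and it passed in 5 of 8 other settings and in none of the 8 fits without 1 mouse. Nlrp3, another sensor, and Il1b missed the threshold, with adjusted p of 0.272 and 0.114 by edgeR. Oas2, which makes the second messenger of RNase L, was the 1 called member of 35 interferon-stimulated genes, at 1.82 to 2.77 CPM in WT and 4.43 to 12.9 CPM in mutants (adjusted p = 0.0277).

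Few cell division genes passed the test. Of 31 tested members, 2 were called, against 2.03% of all tested genes, and both were higher: Top2a, the topoisomerase of dividing cells (1.58, adjusted p = 0.0449), and Foxm1, a transcription factor of mitotic genes (1.44, adjusted p = 0.0454). At an unadjusted p under 0.05, 18 members were higher and 1 was lower, against 11.8% and 9.99% of all tested genes. The list median was 0.81, and 0.48 without mouse Del3_105. Mki67, the proliferation antigen, missed the threshold (adjusted p = 0.0801). No member was called in 7 of the 8 fits that left out 1 mouse each, and 6 were called without Del3_42. With the term for Xist 7 were called, all higher, where 692 of all 15346 tested genes were called higher.

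Polycystic kidney and cilium genes had a list median of -0.04, with 13 of 25 lower in value. Of the 25, 3 were called, all higher, against 1.13% of all tested genes. At an unadjusted p under 0.05, 3 were higher and 4 lower, near the 11.8% and 9.99% of all tested genes. Pkd2, which encodes polycystin-2, read 267, 273, 289.8 and 303 CPM in WT and 396, 396, 399 and 436 CPM in RC/RC:Casp1KO mice. The groups were tight and apart, with a log2 fold change of 0.53 ± 0.09 (SE) and an adjusted p of 0.025 by edgeR. Pkhd1, the gene of recessive polycystic kidney disease, was at 140 to 174 CPM in WT and 215 to 341 CPM in mutants (0.85, adjusted p = 0.0279). Glis2, a cilium-linked transcription factor, had a log2 fold change of 0.49. Set against the same WT mice, RC/RC kidneys had log2 fold changes of 0.20 for Pkd2 and 0.08 for Pkhd1, neither called, and of 0.45 for Glis2, which was called (adjusted p = 0.0278 by edgeR). Notch2, a receptor of nephron patterning, was called higher too (0.79, adjusted p = 0.0275).

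On the lower side, red blood cell transcripts formed the list with the most called members by edgeR, but not when the term for Xist was added. Of 7 tested, 4 were called, all lower, against 0.893% of all tested genes: Hbb-bs, Hbb-bt and Hba-a1, which encode globin chains, and Alas2, the first enzyme of erythroid heme synthesis. Hbb-bs stood at 238, 339.8, 386 and 428 CPM in WT and at 104, 128, 180.3 and 198 CPM in RC/RC:Casp1KO mice. All 4 mutants were below all 4 WT mice, with a log2 fold change of -1.18 ± 0.24 (SE) and an adjusted p of 0.0449 by edgeR. Alas2 was at 11.7 to 17.5 CPM in WT and 4.68 to 6.73 CPM in mutants (-1.37, adjusted p = 0.00852). The summed list was 541 to 1191 CPM in WT, 255 to 453 CPM in mutants and 188 to 332 CPM in RC/RC mice. Globin genes have near copies: Hba-a1 summed with Hba-a2 had an adjusted p of 0.0532 by edgeR and Hbb-bs summed with Hbb-bt 0.0491, or 0.0539 and 0.05 where copies aligned over 50% were summed. How much blood each kidney held was not tested.

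Few tubule transport genes passed the test. None of the 25 proximal tubule genes was called, at a list median of -0.15, nor any of the 14 thick ascending limb genes. Over all tested genes 2.03% were called. By edgeR's unadjusted p under 0.05, 5 proximal tubule genes were lower and 1 higher, against 9.99% and 11.8% of all tested genes. The distal convoluted tubule list had a median of -0.55, with 7 of 15 genes lower at an unadjusted p under 0.05 and none higher, against 9.99% of all tested genes lower. Of the 15, 1 was called lower by edgeR, against 0.893% of all tested genes. In the fit with a term for Xist 7 were called, all lower, where 565 of all 15346 tested genes were called lower. Calb1, the calcium buffer calbindin, read 242, 464, 594 and 666 CPM in WT and 99.6, 101, 189 and 199 CPM in RC/RC:Casp1KO mice, the 2 groups being apart (-1.73, adjusted p = 0.0449). Slc12a3, the thiazide-sensitive cotransporter, overlapped between groups, with a log2 fold change of -0.58, against -2.03 in RC/RC kidneys. Outside this list, Klk1, tissue kallikrein of the connecting tubule, was at 1135 to 2519 CPM in WT and 340.0 to 740.4 CPM in mutants (-1.88, adjusted p = 0.0277). Of 47 cytochrome P450 genes, 1 was called higher and 1 lower, against 1.13% and 0.893% of all tested genes. The higher gene was Cyp2a5 (1.54, adjusted p = 0.0333). Summed with its near copy Cyp2a4, Cyp2a5 was not called (0.67, adjusted p = 0.297 by edgeR). The lower gene, Cyp24a1, which inactivates vitamin D, fell from 189 to 314 CPM to 27.6 to 89.2 CPM (-2.10, adjusted p = 0.0195). Atp4a, a subunit of the gastric-type proton pump, was at 50.5 to 103 CPM in WT and 2.38 to 4.89 CPM in mutants (-4.36, adjusted p = 0.000157).

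Few chaperone and redox genes were called, all lower. Hsp90aa1, an inducible chaperone, was the 1 called member of 25 heat shock and ER stress genes (-0.80, adjusted p = 0.0168). Over all tested genes 0.893% were called lower. By edgeR's unadjusted p under 0.05, 12 of the list were lower, against 9.99% of all tested genes. Gclc and Gsr, which make and recycle glutathione, were the called members of 20 antioxidant genes (-0.78 and -0.66), against 0.893% of all tested genes. Of the 20, 9 were lower and 0 higher by edgeR's unadjusted p under 0.05. Sqle, squalene epoxidase, was the 1 called of 25 cholesterol synthesis genes (-0.83, adjusted p = 0.0499), against 0.893% of all tested genes. Of the 25, 12 were lower and 0 higher by edgeR's unadjusted p under 0.05. With the term for Xist 7 heat shock, 6 antioxidant and 8 cholesterol synthesis genes were called, all lower. In that fit 565 of all 15346 tested genes were called lower. None of 85 cytosolic ribosomal protein genes was called by edgeR, and none had an unadjusted p under 0.05, against 2.03% and 21.8% of all tested genes. Of these 85, 79 were lower in value, with a list median of -0.10. Of 76 nuclear respiratory chain and 76 mitochondrial ribosomal protein genes, 1 each was called lower, against 0.893% of all tested genes. By edgeR's unadjusted p under 0.05, 24 and 22 were lower and 0 higher, against 9.99% of all tested genes lower.

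Many of the calls with the smallest p were of another kind, namely pairs of a gene and a near-identical copy elsewhere in the genome that moved in opposite directions. Of the 311 called genes, 310 had a reference transcript and 72 had a near copy, defined by at least 95% identity over at least 100 bases and 50% of the shorter transcript. Genes that were not called were not searched in this way, so the 72 have no background share. They include immunoglobulin genes and copies that moved together, such as Hbb-bs and Hbb-bt, and are not a count of exchanging pairs. Ndufs5, a subunit of respiratory complex I, lies at chr4:123712710-123718202 on the minus strand of mm10, and its copy BC002163, annotated as a pseudogene, at chr16:42955631-42955949 on the plus strand. BC002163 matched all 318 bases of the Ndufs5 coding sequence except 2, T81C and A105G, counted from the first base of the start codon with the Ndufs5 base first. Bases 51 to 135 of both, read from GRCm39 and its annotation, are shown because they are the stretch that tells the genes apart, with the differing bases in capitals.
Ndufs5: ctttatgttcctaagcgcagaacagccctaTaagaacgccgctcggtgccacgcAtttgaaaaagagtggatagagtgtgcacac
BC002163: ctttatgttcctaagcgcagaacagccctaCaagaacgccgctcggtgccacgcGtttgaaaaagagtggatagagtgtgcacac

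Ndufs5 stood at 70.1, 75.3, 92.7 and 97.8 CPM in WT and at 5.50, 5.79, 6.85 and 6.87 CPM in RC/RC:Casp1KO mice. Its copy BC002163 did the reverse, at 0.287, 0.656, 0.861 and 0.949 CPM in WT and 56.5, 67.4, 77.6 and 78.8 CPM in mutants. Both were called, with log2 fold changes of -3.74 and 6.67. The pair summed to 84.7 ± 13.2 (SD, n = 4) in WT and 76.3 ± 11.1 in mutants, with a log2 fold change of -0.14 (adjusted p = 0.553 by edgeR), so that neither change was left once the pair was summed. RC/RC kidneys, which share the Pkd1 allele but not the Casp1 deletion, averaged 7.74 CPM of Ndufs5 and 90.2 CPM of BC002163.

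Other pairs showed the same exchange with a partial remainder. Atp6v0c, the proton-conducting ring of the vacuolar ATPase, and its copy Gm15487 differ at 1 of 465 coding bases, T111C. Atp6v0c read 244 to 315 CPM in WT and 79.9 to 89.9 CPM in mutants, while Gm15487 read at most 2.58 CPM in WT and 90.1 to 98.3 CPM in mutants. Their sum was still called, with a log2 fold change of -0.62 against -1.68 for Atp6v0c alone. Eno1, the glycolytic enolase, and Eno1b behaved alike (-0.73 and 6.74), and with the other copies the sum had a log2 fold change of -0.39 and was not called. Near copies other than those of immunoglobulin genes were summed where aligned over at least 80% of the shorter transcript. This gave 33 sets holding 49 called genes. Of the 33 sets, 20 stayed called, and 224 genes or sets were called in all. How the authors counted reads that match several places is not given in the sources used here, and the cause of the exchange was not tested.

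**Figure D4:**
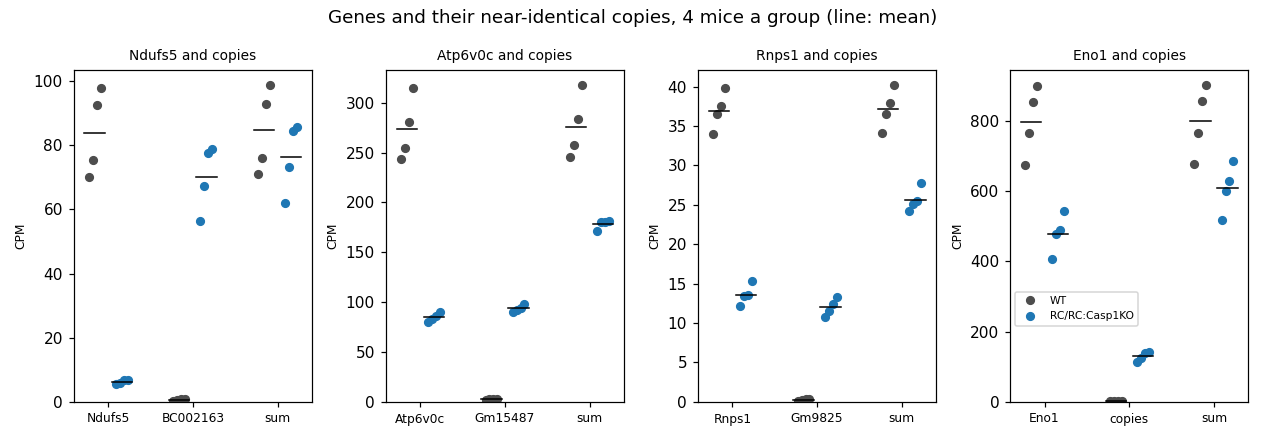
CPM of 4 genes, of their near-identical copies and of the sum in each WT and RC/RC:Casp1KO mouse, with a line at the group mean. The copies are near 0 in WT and high in mutants, and the Ndufs5 sums overlap between groups while those of Atp6v0c do not.

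When the genome was split into 10-Mb windows, 142 of 274 windows with a tested gene had no call and 9 held at least 5 calls other than immunoglobulin genes and at least 5% called. They lay on chromosomes 4, 7, 11 and 17 and were picked after their values were seen. Together they held 94 called of 1188 tested genes, a share that their choice sets. Within 5 Mb of Pkd1 on chromosome 17, 13 of 189 tested genes were called (6.88%, against 2.03% of all tested genes), among them Atp6v0c, Rnps1 and Eme2. Within 5 Mb of Casp1 on chromosome 9, 1 of 25 was called, AK129341. Of the called genes named in the text, H2-Ab1, H2-DMa, H2-DMb2, Atp6v0c, Rnps1 and Eme2 on chromosome 17, Atp4a and Klk1 on chromosome 7, Angptl7 and Eno1 on chromosome 4 and BC018473 and St6galnac1 on chromosome 11 lie in these windows. Strain background in these windows was not tested.

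**Figure D5:**
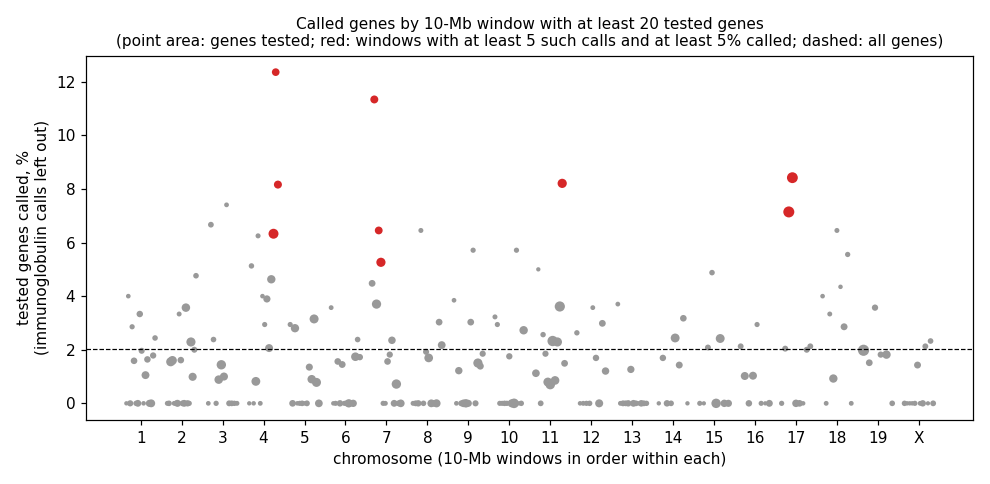
Share of tested genes called in each 10-Mb window with at least 20 tested genes, in order within each chromosome, leaving out immunoglobulin calls; the dashed line is the 2.03% of all genes. The red windows, on chromosomes 4, 7, 11 and 17, hold 94 of the 311 calls.

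Among the called genes outside the lists, BC018473 and St6galnac1 were at or near 0 in WT kidneys. BC018473 was at 0, 0, 0.0937 and 0.150 CPM in WT and at 33.6, 64.9, 71.1 and 112 CPM in RC/RC:Casp1KO mice (adjusted p = 8.44e-05). St6galnac1, a sialyltransferase, had no count in WT mice and 2.88 to 6.36 CPM in mutants, at least 29.9-fold higher against a floor of 3 counts in a WT library of mean size. Angptl7, a secreted angiopoietin-like protein, was at 2.97 to 19.9 CPM in WT and 127 to 248 CPM in mutants (4.07, adjusted p = 0.0185). Serpina3n, an acute-phase protease inhibitor, was at 0.0479 to 0.749 CPM in WT and 1.44 to 21.9 CPM in mutants (4.84, adjusted p = 0.0458). RC/RC kidneys averaged 106 CPM of BC018473, 4.39 CPM of St6galnac1, 134 CPM of Angptl7 and 38.8 CPM of Serpina3n.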

How the data were processed

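Poly-A RNA libraries of 12 kidneys were aligned by the authors with STAR to mm10, with base calls by CASAVA 1.8, per the submitters' notes. They deposited raw counts per gene, which were used here; the tool and strand setting of counting are not given in the sources used here. The deposited FPKM values and the authors' own fold changes and p-values were not used. Columns were matched to groups by name. Counts of the 8 mice were filtered with filterByExpr, scaled by TMM and tested with edgeR 4.0.16 (R 4.3.3) at a Benjamini-Hochberg adjusted p under 0.05. Replicates are separate animals. Same-group libraries all differed by more than counting noise, with chi-square statistics of 15.7 to 127 times their degrees of freedom. Near copies were found with BLAST+ 2.17.0. On simulated data for this comparison (15346 genes), edgeR recovered 56 of 100 2-fold and 86 of 100 4-fold changes, with 7 false calls. DESeq2 recovered 75 and 98 of them, with 53 false calls.

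Named genes were Casp1, Pkd1, substrain and sex genes, the 10 largest called increases and decreases whose higher group had no mouse under 1 CPM, up to 3 called members of each list per direction or otherwise the smallest p, up to 3 called genes within 5 Mb of Casp1 and Pkd1, and the study's mouse primer genes; genes named beyond these were chosen after their values were seen. The comparison, its lists and the summing of copies were chosen with earlier results of these data known. The alternatives tried were DESeq2 1.42.0, other scaling and filters, a joint fit of 12 mice, 1 surrogate variable (sva 3.50.0), a term for Xist above 10 CPM, leaving out each mouse, and summed copies.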

Additional observations from a re-analysis of the deposited data

Results flagged for a closer look

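Of 84 gene and group pairs with printed values examined in groups of 4, 7 had 1 mouse far from the other three by Dixon's criterion, which chance meets in about 1 of 20. Mouse Del3_70 of the RC/RC:Casp1KO group was the high one for Cd74 (858 CPM, others 493 to 540), H2-Ab1 (391 CPM, others 237 to 254), H2-DMb2 (12.5 CPM, others 3.93 to 4.89) and Lcn2 (62.1 CPM, others 4.65 to 12.7). Without that mouse the log2 fold changes were 0.92 for Cd74 (adjusted p = 0.0815), 0.96 for H2-Ab1 (0.055), 1.83 for H2-DMb2 (0.0259) and 2.27 for Lcn2 (0.0597), by edgeR. Mouse Del3_42 was high for Pkd2 (436 CPM, others 396 to 399), Del3_105 was low for Mzb1 (2.75 CPM, others 4.32 to 4.59), and WT mouse B6_2 was high for Casp1 (2.06 CPM, others 1.29 to 1.41).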

How the results depend on the processing

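DESeq2 called 1390 genes and a fit with 1 surrogate variable 1308, against 311; both calls include all 311. At least 10 counts in every mouse left 167, copies aligned over 50% of the shorter transcript and summed left 204 (a rule that joins some unrelated genes; with 80% it was 224), and leaving out 1 mouse gave 108 to 547. By list, DESeq2 called 5 tubular injury, 8 macrophage, 8 matrix, 9 MHC class II, 9 cell cycle and 87 immunoglobulin variable genes. The surrogate variable, which separated the mice with Xist from those without, gave 4, 2, 4, 8 and 8 of the first 5 lists, and the term for Xist, with 1257 genes in all, gave 4, 3, 4, 8 and 7. With at least 10 counts in every mouse, 4 B cell, 2 blood cell, 3 MHC class II, 1 cell cycle and 0 immunoglobulin variable genes were called, none of the last being tested. With every gene of at least 1 count, 3 tubular injury and 35 immunoglobulin variable genes were called, and in one fit of all 12 mice 4 and 32. Library size alone moved the median log2 fold change of all genes from 0.012 to 0.142 and called 1 tubular injury gene. Summing copies left 1 blood cell and 2 MHC class II genes at 50% aligned, 3 MHC class II genes at 80%, and 0 cell cycle genes at both. Leaving out 1 mouse gave 0 to 4 tubular injury, 0 to 1 macrophage, 3 to 6 B cell, 1 to 3 matrix, 1 to 4 blood cell, 0 to 6 MHC class II, 0 to 6 cell cycle and 4 to 24 immunoglobulin variable genes. The cause of these shifts was not tested.

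Directions turned where a copy was summed with its parent gene: BC002163 to -0.14, Eno1b to -0.39, Gm10020 to -0.17, Gm11868 to -0.22 at 50% and -0.24 at 80%, Gm15487 to -0.62 and Gm9825 to -0.53. Among genes not called, Tnfrsf12a, at 0.01, turned to -0.02 with DESeq2, -0.01 with RLE scaling and with the surrogate variable, 0.00 with every gene of at least 1 count and with the term for Xist, -0.15 without Del3_70, -0.09 without B6_3 and 0.00 without B6_6. Il33 turned to -0.10 without Del3_70 and -0.03 without B6_4, and Nlrc4 to 0.20 without B6_4. Over the 8 fits without 1 mouse, their log2 fold changes ran from -0.15 to 0.11 for Tnfrsf12a, -0.10 to 0.23 for Il33 and -1.03 to 0.20 for Nlrc4. No paired analysis was possible because the count columns carry no replicate number. The term for Xist follows sex, not replicate. That term and the summed copies were chosen after seeing the data. With 4 animals a group, changes under 2-fold are often missed.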
